A study of Homo sapiens with 6 samples.

Results

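Proteoglycans and the heparan sulfatases that edit their chains were followed in 3 human hepatocellular carcinoma cell lines with and without TGF-β1. The set holds 10 genes out of the 22091 gene IDs of the count files: SULF1, SULF2, SDC1, SDC4, AGRN, HSPG2, VCAN, LUM, DCN and BGN. They were selected on their measured levels, by line and by treatment, in these same libraries. Their levels and differences are therefore given as a description without a test. All 10 symbols matched an Ensembl ID, 9 genes had at least 1 count, and the same 9 were among the 14176 genes that passed the filter on low counts. SULF1 did not pass.

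RNA sequencing covered the lines MHCC97L, MHCC97H and HCCLM3, each as an untreated 4 h control and after 4 h with 2.5 ng/mL TGF-β1. That gives 6 libraries, 1 per line and condition. MHCC97L and MHCC97H are sublines of low and high metastatic potential from one parental line, and HCCLM3 goes back to MHCC97H through lung metastases. Separate cultures are not stated for the 2 libraries of a line. With line and treatment as terms, the spread behind the p-values is how unevenly these lines differed with TGF-β1. Between lines, the control and the treated library of a line stand as its replicates. No p-value here measures the spread between cultures.

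A proteoglycan is a core protein carrying long sulfated sugar chains, heparan sulfate on some cores and chondroitin, dermatan or keratan sulfate on others. The chains bind growth factors and matrix proteins, and the secreted enzymes SULF1 and SULF2 remove 6-O-sulfate groups from heparan sulfate, which alters which ligands it holds. In liver, syndecans and basement membrane proteoglycans sit at the cell surface and around vessels, whereas versican, lumican, decorin and biglycan are best known from scar tissue laid down by stellate cells and fibroblasts, where TGF-β is a classical inducer.

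The stretches just before the start sites of SULF2, SDC4, BGN and HSPG2 are printed first, because these are the 4 members that the fit over all genes called with TGF-β1. They are RefSeq sequences on GRCh38.p14, written 5′ to 3′ on the gene's strand, and capitals mark matches, on either strand, to a SMAD motif (CAGAC) or an SP1 motif (GGGCGG). The stretches are SULF2 chr20:47786628-47786877 (minus strand), SDC4 chr20:45348425-45348674 (minus strand), BGN chrX:153494730-153494938 (plus strand) and HSPG2 chr1:21937311-21937560 (minus strand). No annotated exon of the same gene lies in them.
SULF2: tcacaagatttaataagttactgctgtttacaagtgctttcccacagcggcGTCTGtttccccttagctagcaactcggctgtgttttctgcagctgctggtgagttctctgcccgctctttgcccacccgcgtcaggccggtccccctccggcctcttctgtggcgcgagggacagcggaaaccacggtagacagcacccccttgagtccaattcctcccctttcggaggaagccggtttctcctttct
SDC4: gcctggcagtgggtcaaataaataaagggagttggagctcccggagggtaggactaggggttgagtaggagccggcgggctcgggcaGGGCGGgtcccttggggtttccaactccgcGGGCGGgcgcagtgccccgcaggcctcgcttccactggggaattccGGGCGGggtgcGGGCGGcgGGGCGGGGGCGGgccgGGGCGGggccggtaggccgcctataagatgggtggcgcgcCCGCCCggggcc
BGN: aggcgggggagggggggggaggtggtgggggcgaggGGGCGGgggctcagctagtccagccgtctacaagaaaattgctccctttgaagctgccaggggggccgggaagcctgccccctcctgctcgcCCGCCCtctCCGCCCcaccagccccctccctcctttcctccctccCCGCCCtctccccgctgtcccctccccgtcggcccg
HSPG2: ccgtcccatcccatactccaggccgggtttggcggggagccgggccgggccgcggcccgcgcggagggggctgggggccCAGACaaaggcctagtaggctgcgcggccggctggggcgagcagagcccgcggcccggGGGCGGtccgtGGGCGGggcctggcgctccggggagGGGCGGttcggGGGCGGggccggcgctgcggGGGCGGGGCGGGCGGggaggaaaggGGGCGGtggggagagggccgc

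RefSeq windows from 250 bases before to 50 bases after a start site were at hand for 6 of the 10 members, 10 windows in all. The SDC4 window held 8 SP1 matches, that of BGN 5 and that of HSPG2 10, overlapping matches counted, and the 4 SULF2 windows, of which the most upstream is printed, held 0, 0, 5 and 1. SMAD matches numbered 1, 0, 0 and 2 in the 4 SULF2 windows, 1 in that of HSPG2 and 0 in those of SDC4 and BGN. The VCAN window held 1 SP1 and 0 SMAD matches. The 2 SDC1 windows held 1 and 1 SP1 matches and 1 and 0 SMAD matches. Of 35116 windows of this length over all genes, 45.0% held an SP1 match and 45.3% a SMAD match. The mean per window was 1.08 SP1 and 0.62 SMAD matches. The letters of an AP-1 motif (TGANTCA) and of a TEAD motif (GGAATG) occurred in 0 of the 10 member windows, against 7.7% and 14.0% of all windows. A match is a description of these letters, not a binding site.

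Libraries held between 18484954 and 23242820 counts after rounding. A count of 0 allows up to 3 counts, or 0.129 to 0.162 CPM (counts scaled by library size) depending on the library, and all intervals below are 95% and cover counting error only. The hepatocyte check was mixed: KRT8, KRT18 and HNF4A were high in all 6 libraries (HNF4A at 79.0 to 208 CPM). AFP was 3.24 to 5.29 CPM and TTR stayed under 1 CPM. In HCCLM3, control then treated, ALB was 1.43 and 1.26, SERPINA1 0.850 and 0.968, APOB 0.743 and 0.581, and APOA1 0.212 and 0.484 CPM. In the MHCC97 libraries ALB was 8.87 to 22.9, SERPINA1 28.5 to 114, APOB 6.49 to 14.3 and APOA1 1.29 to 2.98 CPM. Of 12 stellate cell and fibroblast markers, FAP was at 0 in all libraries and 8, FAP, PDGFRA, PDGFRB, THY1, ACTA2 and DES among them, were under 1 CPM throughout. Of 8 leukocyte markers 7 were under 1 CPM in all libraries, MS4A1 at 0, and the eighth, CD68, was 109 to 246 CPM. Of 7 endothelial markers CDH5 and STAB2 were under 1 CPM throughout, PECAM1 was 5.91 to 31.0, KDR 2.52 to 10.5, LYVE1 1.94 to 5.34, and VWF 1.07 to 3.70 CPM, and TEK passed 1 CPM in the treated HCCLM3 library alone. The endothelial sum was lower in HCCLM3, at a mean of 15.2 CPM, than in MHCC97L at 38.9 and MHCC97H at 43.5 CPM. The part of these markers in the line differences below was not tested.

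Set side by side per kilobase of exon, the membrane proteoglycans were the most abundant members. The mean over the 6 libraries was 79.3 CPM per kb for SDC4, 75.1 for SDC1, 34.8 for AGRN, 11.2 for SULF2, 10.5 for HSPG2, 4.74 for VCAN, 4.34 for LUM, 0.424 for BGN, 0.111 for DCN and 0 for SULF1. The ranges over libraries overlapped between the neighbours SDC4 and SDC1, SULF2 and HSPG2, HSPG2 and VCAN, VCAN and LUM, and BGN and DCN. They were apart between SDC1 and AGRN, AGRN and SULF2, and LUM and BGN. The order was not the same in every line: VCAN ranked 8 in MHCC97L, 7 in MHCC97H and 4 in HCCLM3, whereas SULF2 ranked 4, 4 and 7. It also rests on the length used, all annotated exons of a gene merged: 12847 bases for DCN and 2453 for BGN. Not divided by length, DCN stood above BGN, at means of 1.42 and 1.04 CPM. Summed per library, not per length, the 9 detected members took 1116 to 1348 CPM, and SDC1, SDC4, AGRN and HSPG2 made up 81.1% to 91.0% of that sum.

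**Figure D1:**
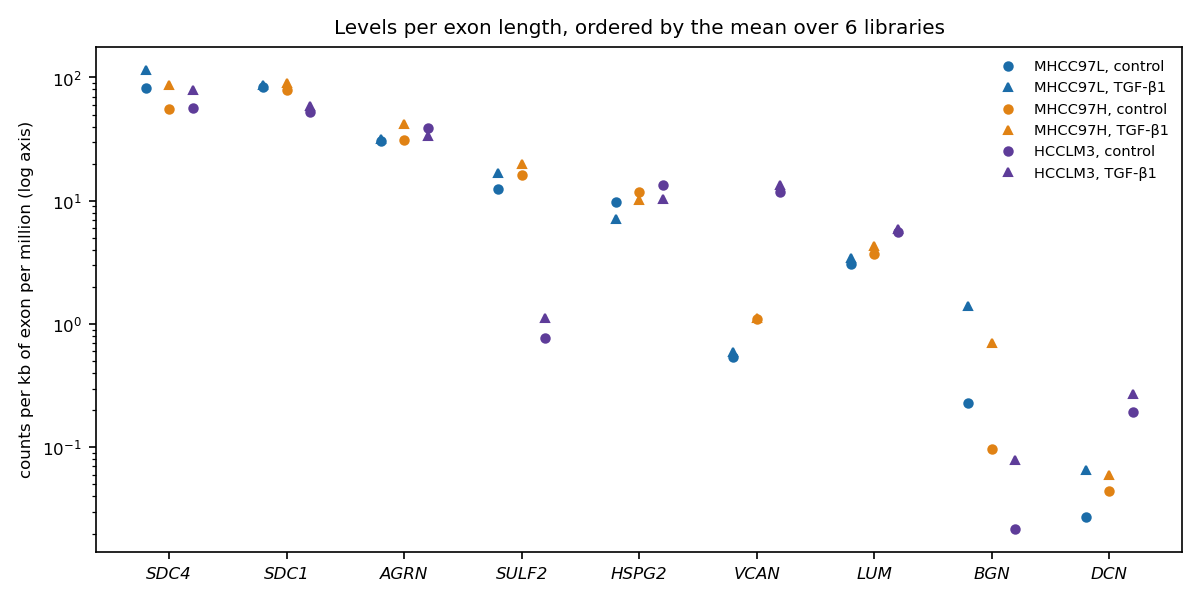
Level of the 9 detected members per kilobase of exon (counts per kb of exon, scaled by library size, log axis) in the 6 libraries, ordered by the mean. SDC4 and SDC1 lie highest, VCAN and SULF2 spread most between lines, and SULF1 is at 0 in every library and is not drawn.

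Of the secreted heparan sulfatases, SULF2 was detected and SULF1 was not. SULF1 (ENSG00000137573.13) had 0 counts in every library. SULF2 (ENSG00000196562.14, chromosome 20, 47656348 to 47786616, minus strand, GRCh38) separated the lines. In the order MHCC97L, MHCC97H, HCCLM3, which holds for all triplets below, SULF2 was 82.7, 107 and 5.10 CPM in the controls and 112, 133 and 7.51 CPM with TGF-β1. Both HCCLM3 libraries were far below all 4 MHCC97 libraries, with no overlap. The fitted difference of HCCLM3 from the mean of the MHCC97 lines was -4.11 on the log2 scale (SE 0.102), or 17.2-fold lower. By condition, MHCC97L exceeded HCCLM3 16.2-fold in controls (13.2 to 20.1) and 14.9-fold with TGF-β1 (12.7 to 17.7). In bulk RNA, fewer cells with a transcript and less transcript per cell cannot be told apart.

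SULF2 was also higher with TGF-β1 than in the control of its own line in all 3 lines, including HCCLM3 where it was scarce. The within-line log2 ratios were 0.44 (0.35 to 0.53), 0.31 (0.23 to 0.39) and 0.56 (0.18 to 0.94). The fitted difference over lines was 0.41 (SE 0.0770), a 1.33-fold higher level, and treated and control values overlapped across lines because the lines stood so far apart. SULF2 shares 308 exonic bases with NCOA3 and AL354813.1 on the opposite strand. The strand setting of the library kit is not stated, so a part of its counts could belong to them.

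Syndecans are transmembrane proteoglycans that act as coreceptors for growth factors and matrix. SDC1 (ENSG00000115884.10, chromosome 2, 20200797 to 20225433, minus strand) was 303, 286 and 187 CPM in controls and 310, 322 and 213 CPM with TGF-β1. HCCLM3 was lowest in both conditions, 1.53-fold below the MHCC97 mean in the fit (log2 -0.61, SE 0.0706). The lines MHCC97H and MHCC97L were near each other, at a log2 difference of -0.01 (SE 0.0792). With TGF-β1 its log2 ratios were small, 0.04 (-0.01 to 0.08), 0.17 (0.12 to 0.22) and 0.18 (0.12 to 0.25), so the interval in MHCC97L held 0.

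SDC4 (ENSG00000124145.6, chromosome 20, 45325288 to 45348424, minus strand), the syndecan of focal adhesions, was 214, 146 and 149 CPM in controls and 302, 228 and 205 CPM with TGF-β1. The mean was 169 ± 38.3 CPM in controls and 245 ± 50.4 CPM with TGF-β1 (SD, n = 3 lines). The 3 within-line log2 ratios were close together at 0.50 (0.45 to 0.55), 0.64 (0.58 to 0.71) and 0.46 (0.40 to 0.53), and none of the intervals held 0. Across lines the ranges still overlapped, since the MHCC97L control lay above the treated HCCLM3 library. In the fit SDC4 was 1.45-fold higher with TGF-β1 (log2 0.54, SE 0.0667). Among lines, MHCC97L held the most SDC4 in both conditions, 1.46-fold (1.40 to 1.53) above MHCC97H in controls and 1.32-fold (1.28 to 1.37) with TGF-β1.

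Agrin and perlecan are large heparan sulfate proteoglycans of basement membranes. AGRN (ENSG00000188157.13, chromosome 1, 1020123 to 1056118, plus strand), which binds dystroglycan and LRP4, was 331, 336 and 422 CPM in controls and 342, 450 and 364 CPM with TGF-β1. It was the one detected member without a common direction. Its log2 ratio was 0.05 (0.00 to 0.10) in MHCC97L, 0.42 (0.38 to 0.47) in MHCC97H and -0.21 (-0.26 to -0.17) in HCCLM3. HCCLM3 was 1.26-fold above MHCC97H in controls (1.22 to 1.30) and MHCC97H was 1.24-fold above HCCLM3 with TGF-β1 (1.20 to 1.27). The fitted difference over lines was 0.09 (SE 0.116), and it was -0.08 without MHCC97H and 0.23 without HCCLM3. AGRN shares 402 exonic bases with AL645608.5.

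HSPG2 (ENSG00000142798.17, chromosome 1, 21822245 to 21937297, minus strand), which encodes perlecan, was lower with TGF-β1 in each line, the only member for which this held. Controls read 178, 213 and 245 CPM and TGF-β1 libraries 130, 184 and 188 CPM, a mean of 212 ± 33.7 against 167 ± 32.4 CPM (SD, n = 3 lines). Control and treated ranges overlapped across lines, but each within-line log2 ratio was below 0: -0.45 (-0.52 to -0.38), -0.21 (-0.27 to -0.15) and -0.38 (-0.44 to -0.32). The fitted difference was -0.35 (SE 0.0700), a 1.27-fold lower level. MHCC97L had the least HSPG2, 1.38-fold (1.32 to 1.44) less than HCCLM3 in controls. HSPG2 counts were not whole in every library before rounding and 2121 of its exonic bases overlap LDLRAD2 on the opposite strand, so its values are uncertain to that extent.

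**Figure D2:**
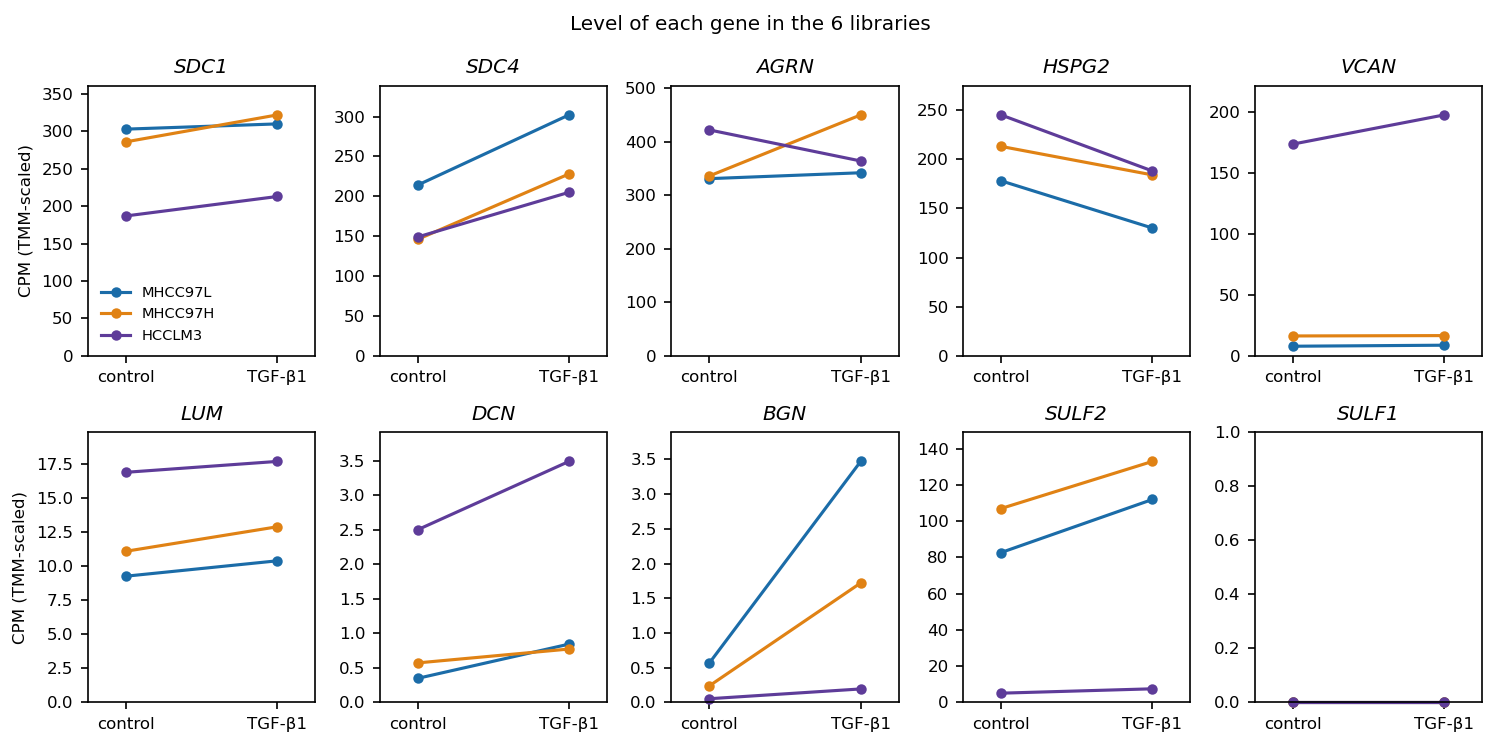
CPM of each of the 10 members in every library, 1 panel and 1 linear axis per gene, with segments joining the control and the TGF-β1 library of each cell line. VCAN is high in HCCLM3 alone, SULF2 is low there, SDC4 is higher and HSPG2 lower with TGF-β1 in each line, and SULF1 stays at 0.

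Versican is a large hyaluronan-binding chondroitin sulfate proteoglycan. VCAN (ENSG00000038427.15, chromosome 5, 83471465 to 83582303, plus strand) was 7.96, 16.4 and 174 CPM in controls and 8.80, 16.7 and 198 CPM with TGF-β1. The lines separated without overlap in the order MHCC97L, MHCC97H, HCCLM3. HCCLM3 exceeded MHCC97L 21.9-fold (18.8 to 25.5) in controls and 22.5-fold (19.5 to 26.1) with TGF-β1, and exceeded MHCC97H 10.6-fold (9.51 to 11.9) and 11.9-fold (10.7 to 13.2). MHCC97H in turn exceeded MHCC97L 2.06-fold (1.72 to 2.48) and 1.89-fold (1.59 to 2.26).

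Against these differences between lines, TGF-β1 went with little difference in VCAN at 4 h. The log2 ratios were 0.14 (-0.15 to 0.44), 0.02 (-0.19 to 0.24) and 0.18 (0.12 to 0.25), and the fitted value was 0.12 (SE 0.0753). VCAN shares 453 exonic bases with its antisense gene VCAN-AS1.

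Lumican, decorin and biglycan are small leucine-rich proteoglycans that bind collagen fibrils. LUM (ENSG00000139329.4, chromosome 12, 91102629 to 91111831, minus strand) was 9.27, 11.1 and 16.9 CPM in controls and 10.4, 12.9 and 17.7 CPM with TGF-β1. Both HCCLM3 libraries were above the other 4, at 1.59-fold the MHCC97 mean in the fit (log2 0.67, SE 0.1000). Its within-line log2 ratios with TGF-β1, 0.17, 0.22 and 0.07, all had intervals that held 0.

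DCN (ENSG00000011465.16, chromosome 12, 91140484 to 91183123, minus strand) lies next to LUM and was also highest in HCCLM3, though at a far lower level. It was 0.348, 0.572 and 2.50 CPM in controls and 0.844, 0.773 and 3.49 CPM with TGF-β1, which rests on 8, 12 and 47 against 19, 18 and 72 counts. HCCLM3 exceeded MHCC97L 7.17-fold in controls (3.36 to 17.6) and 4.13-fold with TGF-β1 (2.46 to 7.25). The log2 ratios with TGF-β1 were 1.28 (0.02 to 2.68), 0.44 (-0.70 to 1.62) and 0.48 (-0.07 to 1.04), of which the last 2 held 0. DCN counts were not whole in every library before rounding, so they are uncertain.

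BGN (ENSG00000182492.15, chromosome X, 153494939 to 153509554, plus strand, partly overlapping HAUS7 on the opposite strand) had the widest fold with TGF-β1 and the lowest counts of the detected members in HCCLM3. Its level was 0.566, 0.238 and 0.0531 CPM in controls and 3.47, 1.72 and 0.194 CPM with TGF-β1, from 13, 5 and 1 against 78, 40 and 4 counts. The ratio was 6.13 (3.38 to 12.0) in MHCC97L and 7.21 (2.85 to 23.4) in MHCC97H. In HCCLM3 it was 3.65 with an interval from 0.361 to 180, so no direction was detectable there at this depth. BGN thus ran opposite to LUM and DCN between lines: with TGF-β1, MHCC97L exceeded HCCLM3 17.9-fold (6.72 to 67.3) and MHCC97H did so 8.87-fold (3.21 to 34.1). In controls the folds were 10.6 (1.60 to 453) for MHCC97L and 4.49 (0.502 to 212) for MHCC97H, and the last interval held 1. BGN passed the filter through 3 libraries above 0.453 CPM and DCN through 5, the other 7 tested members through all 6. Those 3 libraries were both of MHCC97L and the treated one of MHCC97H, so BGN was tested only through libraries where it was higher.

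Of the 12 stellate cell and fibroblast markers, COL6A3 and COL3A1 were highest in HCCLM3, as VCAN, LUM and DCN were, whereas BGN was lowest there. COL1A1 did not follow these genes between lines but was higher with TGF-β1 in each line. No marker followed all of these matrix genes, and a link was not tested. The sum over the 12 markers averaged 43.1 CPM in MHCC97L, 60.7 in MHCC97H and 180 in HCCLM3, mostly COL6A3, and COL3A1 was 14.4 and 11.7 CPM in HCCLM3 but at most 0.381 CPM elsewhere. By condition the sum ranged from 39.5 to 170 CPM in controls and from 46.8 to 190 CPM with TGF-β1. COL1A1 was 0.305 to 0.476 CPM in controls and 5.57 to 7.20 CPM with TGF-β1, beside the higher BGN. LRAT went the other way, at 1.04, 1.48 and 0.372 CPM in controls and 0.222, 0.472 and 0.387 CPM with TGF-β1. The markers PDGFRA, PDGFRB, THY1, FAP, ACTA2 and DES were at 0 or at most 0.267 CPM in every library, and COL1A2 and RGS5 stayed under 1 CPM.

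**Figure D3:**
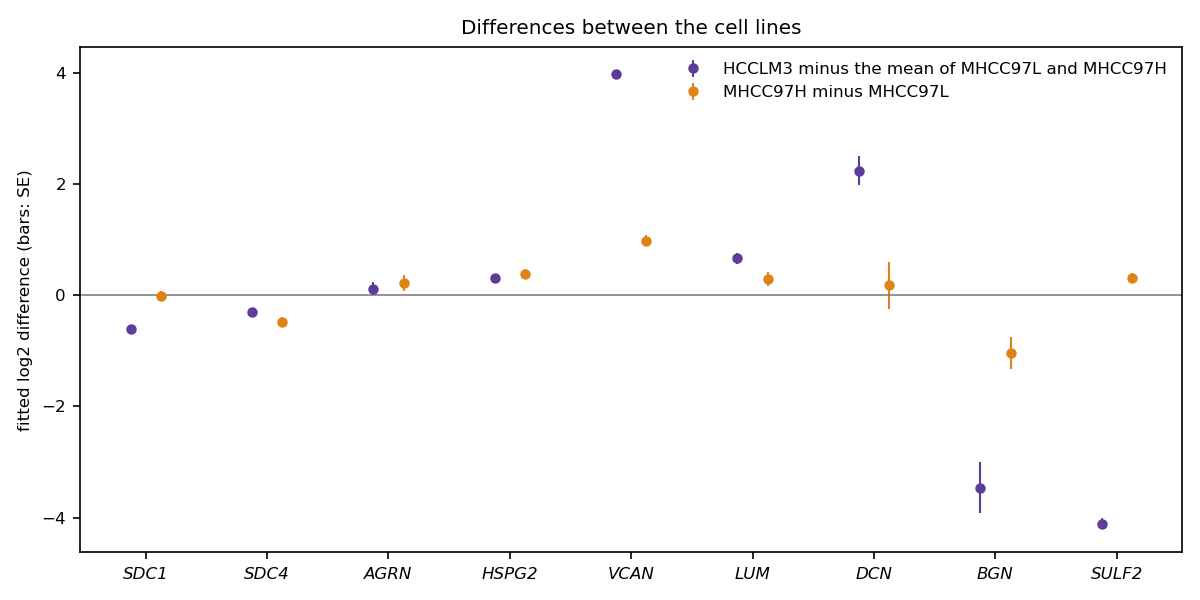
Fitted log2 difference between lines for each tested member, HCCLM3 against the mean of the MHCC97 lines and MHCC97H against MHCC97L, with bars of 1 standard error. VCAN at 3.98 and SULF2 at -4.11 lie farthest from 0 in opposite directions.

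Counted over the set, 7 of the 9 detected members (VCAN, SULF2, SDC1, SDC4, LUM, DCN and BGN) had a higher point value with TGF-β1 in all 3 lines and 1, HSPG2, a lower one in all 3. Counting intervals lay wholly above 0 in all 3 lines for SULF2 and SDC4 and wholly below 0 for HSPG2, and for each of the other 5 at least 1 interval held 0, those of LUM in all 3 lines. Over all 14176 genes tested, 24.8% had higher and 25.6% lower point values in all 3 lines. Scaled by library totals alone, VCAN in MHCC97H and SDC1 in MHCC97L each turned to -0.01, which leaves 5 members higher in all 3. The median fitted difference of the 9 members was 0.15 on the log2 scale, against -0.003 over all genes tested. Since the members were selected on these levels, nothing is read from the counts or the median.

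The fit across all genes (edgeR's quasi-likelihood test, Benjamini-Hochberg adjusted p under 0.05) called SULF2, SDC4 and BGN higher and HSPG2 lower with TGF-β1, where 7.78% of all genes tested were called higher and 6.64% lower. Since the members were selected on this contrast, nothing is read from that count. Without MHCC97L only SDC4 was called, and BGN no longer passed the filter. For HCCLM3 against the MHCC97 mean the fit called VCAN, LUM, DCN and HSPG2 higher and SULF2, SDC1, SDC4 and BGN lower, against 16.9% and 16.4% of all genes, and for MHCC97H against MHCC97L it called VCAN higher and SDC4 lower, against 1.37% and 1.08%. The same applies to these counts. Against MHCC97H alone, HCCLM3 held 1.02-fold the SDC4 level in controls (0.968 to 1.07) and 0.900-fold with TGF-β1 (0.864 to 0.937). For HSPG2 the values were 1.15-fold (1.10 to 1.20) and 1.02-fold (0.979 to 1.07). Without either MHCC97L library SDC4 and HSPG2 were no longer called in HCCLM3 against the MHCC97 mean, and without the TGF-β1 library of HCCLM3 BGN was not. AGRN was called higher there and without that of MHCC97H.

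**Figure D4:**
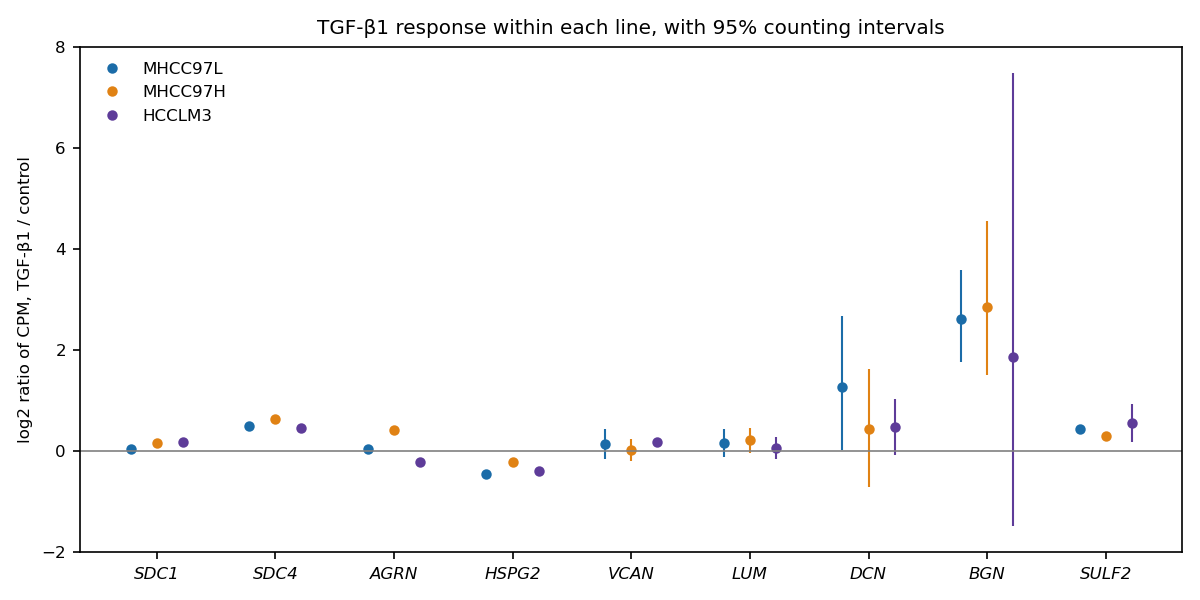
Log2 ratio of TGF-β1 to control within each line for the 9 detected members, with 95% counting intervals. SDC4 lies above 0 and HSPG2 below 0 in each line, AGRN points both ways, and the BGN interval in HCCLM3 reaches from -1.47 to 7.49.

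The genes that build, sulfate, shed and bind these chains were taken from 8 lists, 123 genes in all, of which 87 were tested. With TGF-β1 9 of them rose and 5 fell, 16.1% of those tested, against 14.4% of all genes, so the lists together were near the background. The balance of directions depended on scaling: 6 of the 15 called were higher with library totals and 7 of 13 with upper quartile scaling. The lists were chosen with earlier results of these data known. TGFBR3 and ADAMTS1 already stood in those results, and SDCBP2 was named after its values were seen. The p-values of TGFBR3, ADAMTS1 and SDCBP2 are therefore description only. These genes also count in the shares called, of their own lists and of all lists together, so those shares are description as well.

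Chondroitin sulfate synthesis and sulfation held 3 genes that rose and 1 that fell of 15, 26.7% against 14.4% of all genes. DESeq2 called 2 of the 15 and limma-voom 3. CHST3, a chondroitin 6-O-sulfotransferase, rose by 1.45 on the log2 scale (SE 0.0907, adjusted p = 5.72e-05, edgeR) from 9.74, 6.53 and 15.8 CPM to 28.0, 18.3 and 40.3 CPM. CHST11, a chondroitin 4-O-sulfotransferase, rose by 0.97 (SE 0.0866, adjusted p = 0.000297), higher in 3 of 3 lines. CSGALNACT2, which helps start the chain, rose by 0.37 (SE 0.105, adjusted p = 0.0467), and UST, a uronyl 2-O-sulfotransferase, fell by 0.61 (SE 0.132, adjusted p = 0.0188).

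Among heparan sulfate modifying enzymes 2 of 8 rose and 1 fell, 37.5% against 14.4% of all genes. This share depended on the fit: DESeq2 called 1 of the 8 and limma-voom 2, and without MHCC97L none of the calls held. NDST1, the deacetylase and N-sulfotransferase that begins sulfation, rose by 0.36 (SE 0.0674, adjusted p = 0.0102, edgeR), and HS3ST3A1, a 3-O-sulfotransferase, by 0.53 (SE 0.145, adjusted p = 0.0431). GLCE, the glucuronyl epimerase, fell by 0.43 (SE 0.118, adjusted p = 0.0412), a call lost in 6 of 12 alternatives. Of 8 other heparan sulfate core genes, TGFBR3 alone was called, 12.5% against 14.4% of all genes. It encodes betaglycan, the TGF-β coreceptor, and fell by 1.36 (SE 0.144, adjusted p = 0.000690) from 8.74, 7.81 and 5.36 CPM to 3.15, 3.39 and 1.99 CPM. GPC3, the glypican used as a liver tumour marker, had 0 counts in all 6 libraries.

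Partners and proteases of the members held 4 genes called higher and 2 lower of 13, 46.2% against 14.4% of all genes. ADAMTS1 and SDCBP2 are among the 6, so this share is description only. DESeq2 called 4 of the 13 and limma-voom 6. Of these 6, HAPLN3 and ADAMTS15 kept their call without each line in turn. HAPLN3, a link protein that ties versican-type proteoglycans to hyaluronan, rose by 1.40 (SE 0.142, adjusted p = 0.000551, edgeR) from 9.48, 6.86 and 7.75 to 22.9, 24.6 and 16.6 CPM. The versican-cleaving protease gene ADAMTS15 rose by 0.62 (SE 0.0830, adjusted p = 0.00204), whereas its relative ADAMTS1 fell by 0.89 (SE 0.174, adjusted p = 0.0125). DAG1, the dystroglycan that agrin and perlecan bind, rose by 0.26 (SE 0.0636, adjusted p = 0.0272), the hyaluronan synthase HAS3 fell by 0.57 (SE 0.110, adjusted p = 0.0118), and SDCBP2, a syntenin, rose by 0.58 (SE 0.150, adjusted p = 0.0355).

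In the other 4 lists edgeR called 0 genes, and DESeq2 and limma-voom called 0 as well. These were other chondroitin, dermatan and keratan sulfate cores (10 tested, 0 at an unadjusted p under 0.05), linker and heparan sulfate polymerisation (9 and 2), donor supply (10 and 3) and chain breakdown (14 and 2). Of the 14 genes called with TGF-β1, 5 kept their call without each line in turn: TGFBR3, CHST3, CHST11, HAPLN3 and ADAMTS15. Without MHCC97L the other 9 lost it. The calls of HS3ST3A1 and CSGALNACT2 were lost in 10 and 9 of 12 alternatives, with adjusted p from 0.0416 to 0.497 and from 0.0376 to 0.526 over them (edgeR, DESeq2 or limma-voom). Counts of TGFBR3, CHST3, HS3ST3A1, UST, DAG1 and HAS3 were not all whole, and NDST1, UST, HAS3 and SDCBP2 share exonic bases with another gene, so these are uncertain.

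**Figure D5:**
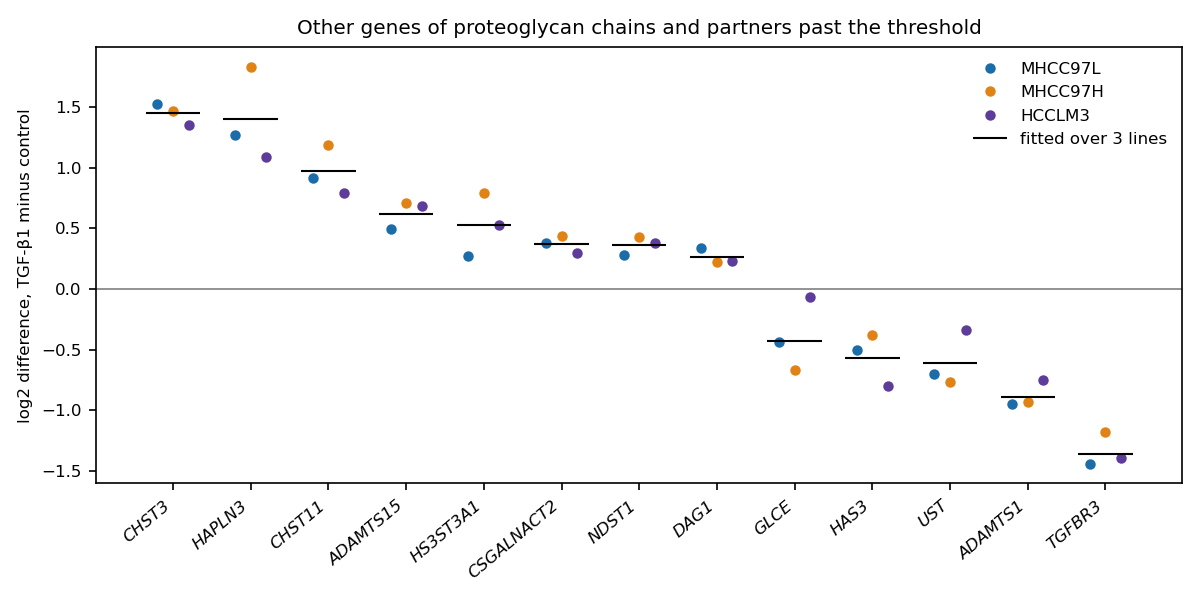
Log2 difference between TGF-β1 and control for 13 of the 14 list genes called (SDCBP2 is left out), with a point for each line and a bar for the value fitted over the 3 lines. CHST3 and HAPLN3 lie highest at 1.45 and 1.40 and TGFBR3 lowest at -1.36, while GLCE in HCCLM3 lies near 0 at -0.07.

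Between lines, 41 of the 87 list genes differed in HCCLM3 (22 higher, 19 lower), 47.1% against 33.3% of all genes. Those with a difference of 2-fold or more and a mean of at least 5 CPM were 6. HS2ST1, the heparan sulfate 2-O-sulfotransferase, was higher by 1.05 (SE 0.0730, adjusted p = 1.34e-05, edgeR), the hyaluronidase gene HYAL2 by 1.02 (SE 0.0757, adjusted p = 1.92e-05) and the hyaluronan synthase HAS2 by 1.17 (SE 0.0978, adjusted p = 3.82e-05). GLCE differed by -1.56 (SE 0.137, adjusted p = 5.06e-05), CSGALNACT1 by -1.12 (SE 0.110, adjusted p = 9.83e-05) and ADAMTS15 by -1.12 (SE 0.0933, adjusted p = 3.85e-05). HS2ST1 shares 720 exonic bases with AC093155.3, HYAL2 509 with TUSC2 and HAS2 201 with HAS2-AS1, so these are uncertain to that extent. MHCC97H differed from MHCC97L in 3 of 87 list genes, all lower: SRGN, the serglycin core, by -1.12 (SE 0.108, adjusted p = 0.00147), CHST3 by -0.60 (SE 0.112, adjusted p = 0.0308) and CHST11 by -0.54 (SE 0.104, adjusted p = 0.0333), which is 3.45% against 2.45% of all genes. CHST3 lost this call without any one of the 4 MHCC97 libraries and with DESeq2 or limma-voom (adjusted p from 0.00173 to 0.425 over 14 alternatives). CHST11 lost it without either MHCC97L library, without the MHCC97H control, with library totals and with limma-voom (adjusted p from 0.000147 to 0.411), and SRGN kept it in all 14.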

How the data were processed

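RNA sequencing of 6 libraries (3 lines, 2 conditions) was used as the authors deposited it: expected counts per Ensembl gene, 63.6% to 64.6% of them whole. Per the submitters' processing notes the tools included Cuffdiff 1.3.0, Cufflinks 2.2.1 and TopHat2 2.1.1 (build hg38), with no role given. Of the counting tool, nothing is given in the sources here. Per the values, the unit is expected counts.

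Expected counts were rounded. Genes were kept by edgeR's filterByExpr (14176), scaled by TMM (factors 0.971 to 1.029), and tested with edgeR's quasi-likelihood test (robust) with cell line and treatment as terms, leaving 2 residual degrees of freedom, with Benjamini-Hochberg adjustment over all genes kept. The fit was tested on simulated data. CPM are TMM-scaled. Within-line ratios have exact conditional binomial intervals. Per-length levels used merged GENCODE exons of GRCh38. Promoter windows were RefSeq's. No protein sequence was used here.

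The members, lists and tests were chosen with earlier results of these data known. TGFBR3 and ADAMTS1 already stood in those results. Named list genes were the up to 3 with the smallest p in each direction per list, plus those at 2-fold with a mean of 5 CPM; for lines only the latter, and CHST3 and CHST11, are printed. SDCBP2 was named after its values were seen.

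Pairing comes from the cell line labels. Deviations of a line's libraries from their condition means correlated across genes at 0.587 in MHCC97L, 0.456 in MHCC97H and 0.728 in HCCLM3.

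Alternatives were other scalings, DESeq2 1.42.0, limma-voom (limma 3.58.1), other filters, no pairing and left-out lines or libraries. Tools were R 4.3.3, edgeR 4.0.16, Python 3.11.15, pandas 2.3.3, numpy 2.4.6, scipy 1.17.1 and matplotlib 3.10.9.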

Additional observations from a re-analysis of the deposited data

Results flagged for a closer look

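AGRN, the agrin gene, was flagged because its levels with TGF-β1 lay on opposite sides of the control in different lines. The log2 ratio in MHCC97L minus that in HCCLM3 was 0.26, and the ratio in MHCC97H minus that in HCCLM3 was 0.64. Each line has 1 library per condition, so the difference between lines was not tested.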

How the results depend on the processing

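With TGF-β1, 2044 genes were called. Without the cell line as pairing term (no replicate block) the fit called 10 genes, 0 members and 0 list genes, and over fits without 1 line the counts ran from 611 to 3973 genes (611 without MHCC97L, 980 without MHCC97H, 3973 without HCCLM3), 1 to 4 members and 5 to 27 list genes. DESeq2 called 8 list genes in place of 14 and gave BGN no adjusted p, and a filter at 1 CPM removed BGN and DCN. For MHCC97H against MHCC97L, fits without 1 library called 96 to 1485 genes in place of 347, 1 to 4 members in place of 2, and 1 to 13 list genes in place of 3, and limma-voom called 1 list gene. SDC4 lost its call there without either MHCC97L library or the MHCC97H control, SULF2 and HSPG2 gained one without either HCCLM3 library, and HSPG2 also without the MHCC97H control and with DESeq2. The cause was not tested. For HCCLM3 against the MHCC97 mean the counts of genes (4725), members (8, from 6 to 9) and list genes (41) stayed within 1.5 times under all alternatives run. The share of TGF-β1 calls that were higher was 54.0% with TMM, 55.0% with DESeq2 factors, 44.2% with upper quartile scaling and 37.1% with library totals. Over all alternatives and comparisons, named list genes lost their call 54 times under other settings and 62 times in fits without a line or library, and members 5 and 10 times. No value called in the main fit changed direction under the alternatives run. Among the others, AGRN with TGF-β1 changed sign (-0.08 without MHCC97H). In HCCLM3 against the MHCC97 mean AGRN was -0.01 without the MHCC97H control and -0.10 without the HCCLM3 control. It was 0.24 without the treated MHCC97H library and 0.34 without the treated HCCLM3 library, the 2 fits that called it. In MHCC97H against MHCC97L the sign changed for AGRN (-0.04 without the treated MHCC97H library), SDC1 and DCN. So did the 2 within-line ratios of VCAN and SDC1 named above. BGN and DCN are limited by depth.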
